A study of Mus musculus with 9 samples.

Results

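The genes described here encode the factors that start and drive protein synthesis on cytosolic ribosomes. Members were all genes of the deposited table whose mouse symbol begins with Eif1 to Eif6 or with Eef1 or Eef2, without the cap-binding protein Eif4e, its Eif4ebp inhibitors and the Y-linked Eif2s3y. That gave 63 members among 22255 genes, 50 of them initiation factors or their regulators and 13 elongation factors or their modifying enzymes.

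During initiation, eIF2 carries the initiator tRNA to the small ribosomal subunit, eIF3, eIF1 and eIF1A hold that subunit ready, and the eIF4 group brings it to the capped messenger RNA. eIF5 and eIF5B then allow the large subunit to join. During elongation, eEF1A delivers aminoacyl-tRNAs, the eEF1B complex recharges eEF1A with GTP, and eEF2 moves the ribosome along. In neurons, phosphorylation of the eIF2 alpha subunit by the eIF2 alpha kinases limits initiation, and phosphorylation of eEF2 by its kinase slows elongation. FMRP, the protein missing in fragile X syndrome, is an RNA-binding protein best known as a repressor of translation at synapses.

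All 9 samples came from Fmr1 knockout mice on the C57Bl/6J strain, a model of fragile X syndrome, and there was no wild-type group. Synaptoneurosomes, a fraction enriched in pinched-off synaptic terminals with their postsynaptic partners, had been prepared from frozen hippocampus. The animals had received AM6545, an antagonist of the CB1 cannabinoid receptor that largely stays outside the brain, or vehicle, over a sub-chronic period. There were 4 AM6545 samples (A, B, C and E) and 5 vehicle samples (A to E). The labels used here give no dose, age or sex, and do not say that each sample came from a separate animal, so p-values measure only the spread between these samples, which may be technical.

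Estimated transcript counts summed to between 17628922 and 27263393 per sample. Levels are CPM (counts in proportion to the library total), scaled by edgeR's TMM factors. Fmr1 was counted at 9.45 to 13.3 CPM in all 9 samples. The data do not show whether the counted part of the locus lies outside the deletion, so this level checks nothing about the labels. All 7 neuronal markers were present in every sample, as were myelin, astrocyte and microglial markers. Vehicle A stood apart, with 78.1 CPM of summed pituitary genes against 0.636 to 2.02 CPM elsewhere. Summed choroid plexus markers were 2164 to 4369.5 CPM in vehicle A, D and E and 50.8 to 941 CPM in the other 6 samples. In such bulk samples fewer cells of a type and less RNA per cell cannot be told apart.

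Translation factors differed little between AM6545 and vehicle samples. By edgeR's quasi-likelihood test with Benjamini-Hochberg adjustment over 14512 tested genes, 0 members and 0% of all genes passed an adjusted p of 0.05, and the members' adjusted p ran from 0.653 to 0.996. DESeq2 and limma-voom likewise gave 0 genes past that threshold. Of the 63 members, 61 had enough counts to be tested. Eif4e1b, an oocyte form of the cap-binding protein, had no counts in any sample, and Eef1akmt3, a methyltransferase of eEF1A, had 2 to 7 counts per sample. At an unadjusted p under 0.05 there were 4 members, 0 higher and 4 lower in AM6545 samples, where 7.21% of all tested genes reached that p, 3.03% higher and 4.18% lower. With 4 of 61 the share of members was near the background. The log2 fold change (AM6545 over vehicle) was below 0 for 34 of 61 members, against 51.8% of all genes, and its median was -0.03, against -0.01 over all genes.

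The intervals say how large a difference could have gone unseen. The 95% intervals of the log2 fold changes had a median half-width of 0.24, and 57 of 61 lay wholly within a 1.5-fold change in either direction. The other 4 were wider or lay off centre: Eif2ak2, with a lower bound of -0.69, Eef2kmt, with a lower bound of -0.61, Eif3c, with an upper bound of 0.62, and Eef1a2, with an upper bound of 0.84. For these 57 factors a 1.5-fold difference between the group means thus lay outside the interval.

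**Figure D1:**
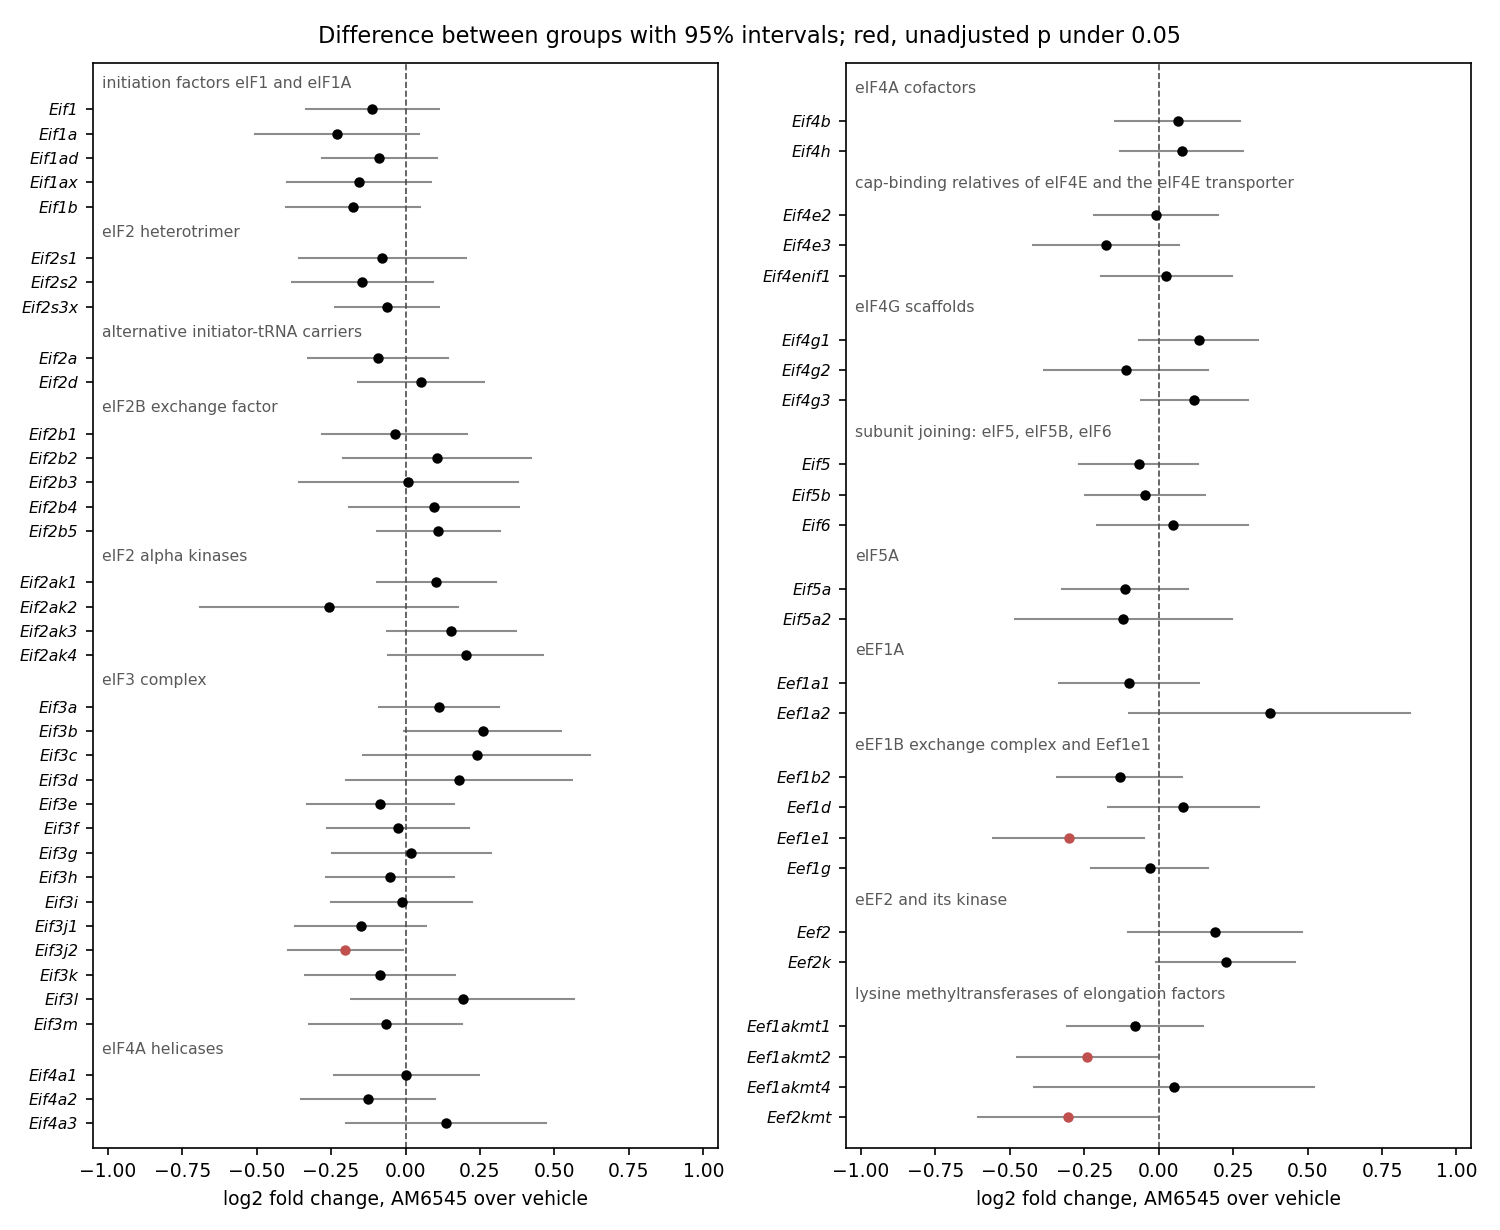
Log2 fold change, AM6545 over vehicle (horizontal axis), of each of the 61 tested members, grouped by complex, with 95% intervals as lines. Red marks the 4 members at an unadjusted p under 0.05, all below 0; 57 of the 61 lines cross 0.

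The members with the smallest p-values belong to the elongation branch and to eIF3. Eef1e1 (also known as AIMP3), a small scaffold protein of the tRNA synthetase complex related to the eEF1B subunits, was at 36.1, 32.2, 37.2 and 37.4 CPM in AM6545 A, B, C and E and at 42.5, 40.7, 57.2, 39.0 and 40.9 CPM in vehicle A to E. Every AM6545 value was below every vehicle value, and vehicle C was far above the other vehicle samples. Its log2 fold change was -0.30 (SE 0.12; edgeR unadjusted p = 0.0224, adjusted p = 0.653). Without vehicle C it was -0.19 (edgeR unadjusted p = 0.0533). In vehicle C the summed markers of microglia (298 CPM), astrocytes (1360 CPM) and oligodendrocytes (8616 CPM) were the lowest of all samples. So were those of endothelium (6.35 CPM), choroid plexus (50.8 CPM) and hippocampal subfields (433 CPM), while ependymal and pituitary sums were lowest in other samples. The 7 neuronal markers summed to their highest value there, 8515 CPM, but through Snap25 alone, at 5304 CPM: the other 6 summed to 3211 CPM, within the 3020 to 3867 CPM of the other samples, and Slc17a7 (824 CPM) and Grin1 (127 CPM) were at their lowest. The part of cell composition in the Eef1e1 level was not tested.

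Eef2kmt, the lysine methyltransferase that modifies eEF2, was the other member whose groups did not overlap. It was at 5.43, 5.76, 5.84 and 5.40 CPM in the AM6545 samples and at 7.34, 5.93, 5.99, 8.45 and 6.96 CPM in vehicle A to E. Only a narrow gap separated the groups, and the high values were those of vehicle A, D and E, the samples with high choroid plexus markers; the part of that tissue was not tested. The log2 fold change was -0.31 (SE 0.14; edgeR unadjusted p = 0.0465, adjusted p = 0.653). A stretch of 474 bases is identical in transcripts of Eef2kmt and of Alg1, so part of its count is uncertain. Among all tested genes the groups did not overlap with lower AM6545 values for 0.868% and with higher ones for 0.579%; among the 61 tested members these were 2 and 0.

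Eef1akmt2, a lysine methyltransferase of eEF1A, was at 28.2, 25.2, 28.5 and 29.5 CPM in the AM6545 samples and at 36.2, 29.0, 38.9, 31.7 and 29.2 CPM in vehicle A to E. The groups overlapped through vehicle B and E, while vehicle A and C were high. Its log2 fold change was -0.24 (SE 0.11; edgeR unadjusted p = 0.0441, adjusted p = 0.653), and it was -0.03 once each sample's trends with transcript length and GC content had been removed. Of the remaining methyltransferases, Eef1akmt1 had the highest level per length of this group, at 27.8 to 38.0 CPM with a log2 fold change of -0.08 (SE 0.11), and Eef1akmt4 stayed at 1.63 to 2.71 CPM with a log2 fold change of 0.05 (SE 0.22). A further enzyme of this kind is in the table as Mettl13, not under an Eef symbol, and had a log2 fold change of 0.31 (SE 0.16).

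Eif3j2 was the only initiation factor at an unadjusted p under 0.05. It encodes the loosely bound j subunit of eIF3, which contacts the decoding site of the small subunit, and Eif3j1 encodes a nearly identical protein. Eif3j2 was at 34.3, 31.7, 29.0 and 32.8 CPM in the AM6545 samples and at 39.7, 35.6, 36.9, 34.1 and 37.3 CPM in vehicle A to E. The groups overlapped only through AM6545 A and vehicle D. Its log2 fold change was -0.20 (SE 0.09; edgeR unadjusted p = 0.0424, adjusted p = 0.653), and that of Eif3j1 was -0.15 (SE 0.10). With length and GC trends removed the value of Eif3j2 was -0.08 (edgeR unadjusted p = 0.422). The transcripts of both genes share 2379 bases at up to 99.4% identity, so reads may have been split between them and neither level is certain on its own.

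**Figure D2:**
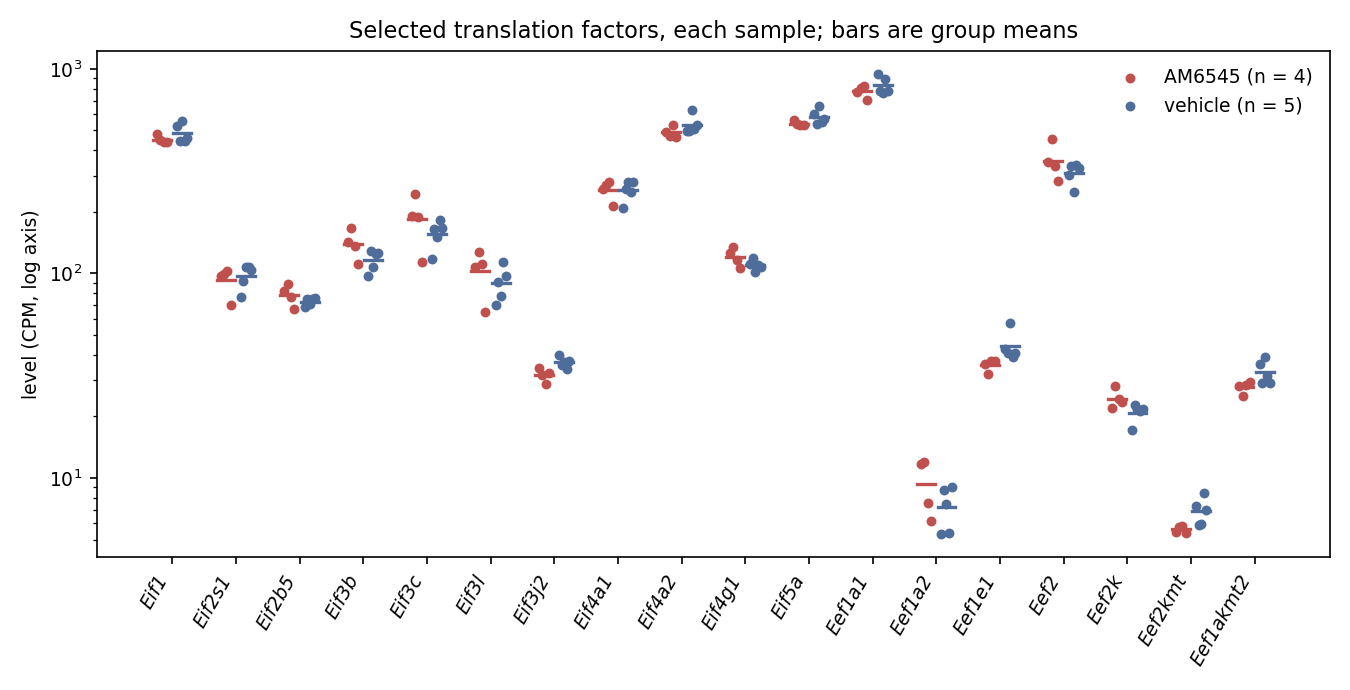
Level of 18 translation factors in every sample, in CPM on a log axis, with AM6545 samples in red (n = 4) and vehicle samples in blue (n = 5); short bars are group means. Groups overlap for all genes shown except Eef1e1 and Eef2kmt, and levels run from 5.32 CPM of Eef1a2 in vehicle A to 946 CPM of Eef1a1 in the same sample.

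Among eIF1, eIF1A and the similarly named Eif1ad, Eif1 reached 356 CPM per kilobase of transcript and its paralogue Eif1b 164 CPM. Eif1a, Eif1ax and Eif1ad stood at 52.7, 24.8 and 15.8 CPM per kilobase. eIF1 guards against initiation at wrong codons, and eIF1A (Eif1a and Eif1ax) assists scanning. Eif1 was at 481, 448, 437 and 439 CPM in the AM6545 samples and at 527, 445, 558, 446 and 461 CPM in vehicle A to E. Vehicle A and C were high and the remaining 7 samples close together. All 5 members of this group had log2 fold changes below 0, from -0.23 (Eif1a, SE 0.13) to -0.09 (Eif1ad, SE 0.09), with a median of -0.16, and 0 of 5 were at an unadjusted p under 0.05. For Eif1a the single value of 155 CPM in vehicle C lay above a range of 93.3 to 113 CPM in the other 8 samples. Eif1 shares 662 bases of near-identical sequence with Emd in transcript models, so its level may hold reads of that gene.

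The eIF2 heterotrimer, which binds GTP and the initiator tRNA, had 3 of 3 log2 fold changes below 0, from -0.15 to -0.06, none at an unadjusted p under 0.05. Eif2s1 encodes the alpha subunit, the target of the stress-responsive kinases. It was at 97.0, 99.3, 103 and 70.1 CPM in AM6545 A, B, C and E and at 76.9, 91.8, 107, 108 and 104 CPM in vehicle A to E. AM6545 E and vehicle A were low and the other 7 samples lay between 91.8 and 108 CPM, so the log2 fold change of -0.08 (SE 0.13) was 0.03 without AM6545 E. Eif2s2, the beta subunit and the most abundant of the 3 per length, was at 71.7, 65.7, 77.3 and 67.5 CPM against 79.6, 71.4, 97.7, 70.7 and 71.2 CPM, with a log2 fold change of -0.15 (SE 0.11); vehicle C alone was high. Eif2a and Eif2d, which encode separate tRNA carriers and not eIF2 subunits, had log2 fold changes of -0.09 (SE 0.11) and 0.05 (SE 0.10).

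Of the 4 kinases that phosphorylate the eIF2 alpha subunit, each sensing a different stress, 3 had log2 fold changes above 0 and 0 were at an unadjusted p under 0.05. Eif2ak1 (HRI, the heme-regulated kinase) was the most abundant per length, at 103, 105, 95.6 and 90.8 CPM in the AM6545 samples and 79.3, 96.5, 99.4, 89.7 and 93.4 CPM in vehicle A to E, a log2 fold change of 0.10 (SE 0.09). Its transcripts share 488 identical bases with Aimp2. Eif2ak3 (PERK, the kinase of the endoplasmic reticulum) was at 19.3, 18.6, 20.04 and 22.7 CPM against 17.0, 19.8, 19.2, 17.7 and 16.9 CPM, a log2 fold change of 0.15 (SE 0.10) with overlapping groups. Eif2ak4 (GCN2, which senses uncharged tRNA) was at 11.3, 10.4, 11.2 and 8.58 CPM against 7.74, 8.97, 9.50, 9.22 and 9.52 CPM. There 3 of 4 AM6545 samples were above all vehicle samples and AM6545 E was below 4 of them; the log2 fold change was 0.20 (SE 0.12; edgeR adjusted p = 0.662).

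Eif2ak2 (PKR, the double-stranded RNA kinase induced by interferon) had the lowest level per length of all tested members, at 0.932 CPM per kilobase. Its levels were 3.67, 2.97, 3.43 and 4.41 CPM in the AM6545 samples and 5.66, 4.21, 2.74, 4.44 and 4.64 CPM in vehicle A to E. The highest 3 values were those of vehicle A, D and E, again the samples rich in choroid plexus markers, whose part was not tested. With a log2 fold change of -0.26 (SE 0.20) the difference was within the spread of the vehicle samples. eIF2B, the exchange factor that the phosphorylated alpha subunit blocks, had 4 of 5 log2 fold changes above 0 and a median of 0.10, with 0 at an unadjusted p under 0.05. Its epsilon subunit Eif2b5, which carries the catalytic domain and was the most abundant of the 5 per length, was at 82.2, 89.1, 76.7 and 66.8 CPM against 68.5, 74.8, 70.6, 75.1 and 75.4 CPM, a log2 fold change of 0.11 (SE 0.10). AM6545 A, B and C were above every vehicle sample and AM6545 E below all of them.

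The largest initiation complex is eIF3, a scaffold of 12 firmly bound subunits and the j subunit. Without the j genes its log2 fold changes were above 0 for 6 of 12 genes, with a median of 0.0027. That tally depended on the setting: 12 of 12 were above 0 without AM6545 E (median 0.12), and 11 of 12 with length and GC trends removed (median 0.08). The tally was 5 of 12 without AM6545 B (median -0.06), without AM6545 A (median -0.03) and with limma-voom (median -0.01). Eif3b, part of the core that reaches the mRNA entry channel, had the highest log2 fold change of the complex, at 0.26 (SE 0.12; edgeR unadjusted p = 0.0547, adjusted p = 0.653). Its levels were 143, 168, 136 and 111 CPM in AM6545 A, B, C and E and 96.7, 129, 108, 124 and 125 CPM in vehicle A to E. AM6545 A, B and C were above all vehicle samples, and AM6545 E lay among the vehicle values. Eif3g, an RNA-binding core subunit with the highest level per length in eIF3 at 74.0 CPM per kilobase, was at 90.0, 96.8, 82.6 and 58.7 CPM against 78.2, 77.3, 80.7, 86.6 and 81.8 CPM, a log2 fold change of 0.02 (SE 0.12).

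Subunits of eIF3 moved together from sample to sample more than between groups. Of the 12 subunits, 10 had their lowest level in AM6545 E, 6 their highest in AM6545 B and 5 their highest in vehicle D. The summed level of these 12 was 1259.5, 1438, 1276 and 922 CPM in AM6545 A, B, C and E and 1052, 1127, 1115, 1295 and 1176 CPM in vehicle A to E. The AM6545 samples thus held both the highest and the lowest sum. The spread was widest for Eif3c, Eif3d and Eif3l, singled out after their values were seen. Eif3c, a large core subunit, was at 190.4, 244, 189 and 114 CPM in the AM6545 samples and at 117, 165, 151, 182 and 166 CPM in vehicle A to E, a 2.14-fold range. Eif3d, which can itself bind a cap, ranged 2.12-fold from 57.4 CPM in AM6545 E to 122 CPM in AM6545 B, and Eif3l ranged 1.95-fold between the same 2 samples.

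**Figure D3:**
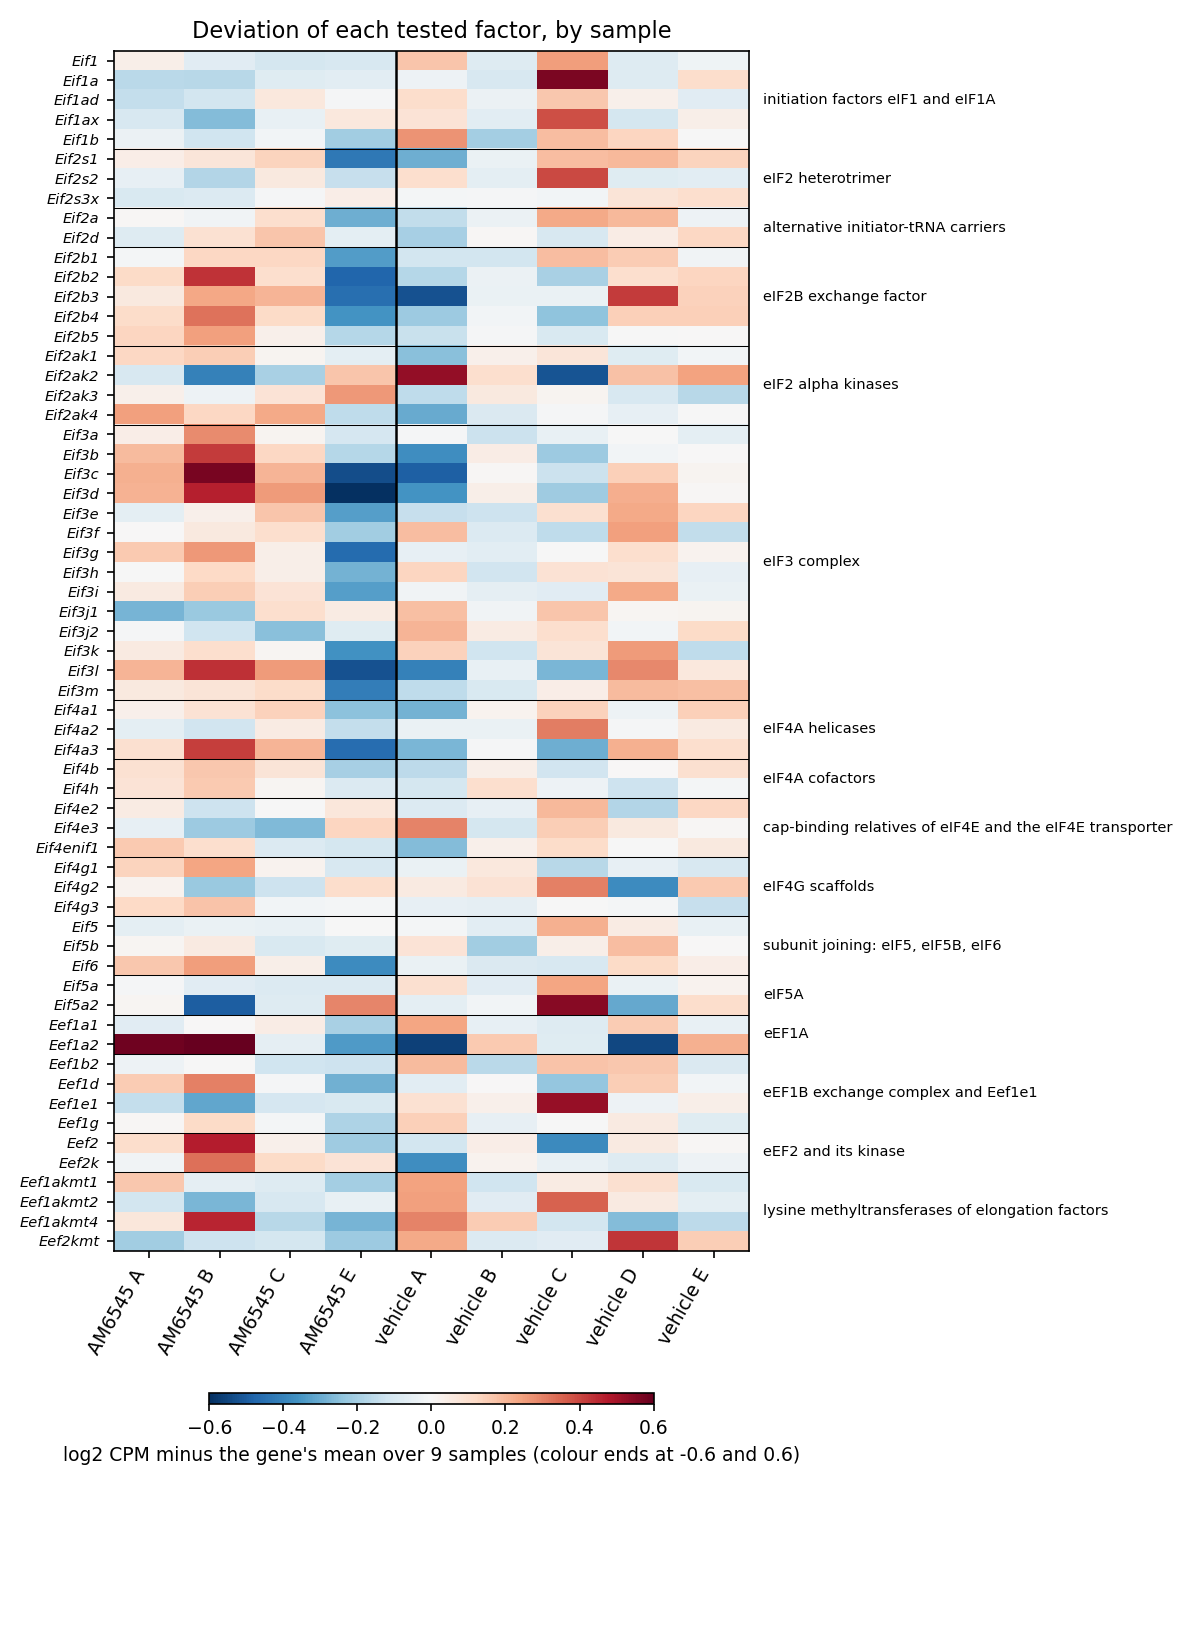
Log2 CPM of each tested member minus its own mean over the 9 samples (colour, cut off at -0.6 and 0.6), with samples in columns and members in rows by complex. AM6545 E is blue for most eIF3, eIF2B and eIF4A3 rows, AM6545 B is red for the same rows, and vehicle C is red for Eif1a, Eif1ax, Eif5a2 and Eef1e1.

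The same samples stood at the ends across the members. AM6545 E had the lowest level of 27 of 61 members, while 14.1% of all tested genes were lowest there, and AM6545 B had the highest level of 21 of 61, against 17.4% of all tested genes. Vehicle C was highest for 24.6% of members against 19.7% of all tested genes, vehicle A for 16.4% against 17.9%, and vehicle D for 14.8% against 8.89%. Within eIF2B, AM6545 E was lowest for 4 of 5 subunits, with a sum of 204 CPM against 222 to 310.5 CPM in the other samples. Summed microglial markers were highest of all samples in AM6545 E, at 536 CPM against 298 to 496 CPM, and the neuronal markers without Snap25, at 3829 CPM, were second only to AM6545 C; the part of cell composition was not tested. Without AM6545 E the count of members at an unadjusted p under 0.05 was 13, of which 9 were higher and 4 lower, and 12.6% of all genes tested in that fit reached that p, made up of 6.77% higher and 5.87% lower. Those 9 were Eef1a2, Eef2, Eif2ak4, Eif2b2, Eif3b, Eif3c, Eif3d, Eif3l and Eif4a3, with log2 fold changes from 0.25 to 0.53, and 0 members passed the adjusted threshold in that fit (smallest edgeR adjusted p = 0.360). Without AM6545 B the count was 0, where 4.38% of all genes reached that p. It was 1 (Eef1e1) without vehicle A and without AM6545 C, against 3.43% and 4.71% of all genes, and 2 without vehicle C and without vehicle E, against 7.07% and 6.54%.

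The eIF4 group prepares the mRNA. Eif4a1 and Eif4a2 encode interchangeable DEAD-box helicases that unwind the 5' leader, and Eif4a2 is the form enriched in brain. Eif4a2 was at 491, 472, 529.9 and 463 CPM in the AM6545 samples and at 497, 497, 632, 509 and 532 CPM in vehicle A to E, with only vehicle C standing high (log2 fold change -0.13, SE 0.11). Eif4a1 was at 259.5, 269.9, 279 and 214 CPM against 208, 258, 279.8, 249 and 280.3 CPM (log2 fold change 0.0028, SE 0.11). Per length, Eif4a1 stood at 0.522 to 0.712 of the level of Eif4a2, so the brain form was the more abundant in every sample. The log2 ratio of Eif4a1 to Eif4a2 was -0.94 ± 0.13 (SD, n = 4) in AM6545 and -1.07 ± 0.14 (SD, n = 5) in vehicle samples, a difference of 0.13 with overlapping groups (two-sided exact permutation p = 0.206, adjusted over 3 ratios 0.310). The smallest p that 4 against 5 samples allow is 0.0159. Eif4a3, a helicase of the exon junction complex, had a log2 fold change of 0.14 (SE 0.16).

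Among scaffolds and cofactors, Eif4g1 and Eif4g3 encode the scaffolds that join eIF4E, eIF4A and eIF3. Eif4g1 was at 126, 135, 116 and 107 CPM in the AM6545 samples and at 111, 119.5, 102, 110.5 and 107 CPM in vehicle A to E, a log2 fold change of 0.13 (SE 0.09). Eif4g3 was at 96.0, 99.7, 87.6 and 87.8 CPM against 85.4, 85.2, 88.3, 87.7 and 80.5 CPM, a log2 fold change of 0.12 (SE 0.08). For both genes AM6545 A and B were above all vehicle samples and AM6545 C and E were among them. Eif4g2 (DAP5), a related scaffold that does not bind eIF4E, was at 276, 233, 250.01 and 293 CPM against 282, 289, 336, 209.7 and 303 CPM, a log2 fold change of -0.11 (SE 0.13). The transcript model used for its length has only 742 bases, so its level of 370.3 CPM per kilobase is uncertain.

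Eif4h and Eif4b stimulate eIF4A. Eif4h, at 190.3 CPM per kilobase, was at 477, 501, 452 and 425 CPM in the AM6545 samples and at 418, 483, 441, 412 and 445 CPM in vehicle A to E (log2 fold change 0.08, SE 0.10). Eif4b was at 99.3, 104, 98.3 and 81.2 CPM against 83.6, 95.5, 86.1, 93.2 and 99.6 CPM (log2 fold change 0.06, SE 0.10). Both genes differed by less than their spread. Of the relatives of eIF4E, Eif4e2 (4EHP), a cap-binding repressor, led per length at 46.0 to 59.5 CPM with a log2 fold change of -0.01 (SE 0.10), Eif4e3 had -0.18 (SE 0.11), and Eif4enif1, which imports eIF4E into the nucleus, had 0.03 (SE 0.10).

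Among late initiation factors, Eif5, the GTPase activator of eIF2, was at 329, 334, 333 and 342 CPM in the AM6545 samples and at 339, 328, 398, 354 and 333 CPM in vehicle A to E, tight values with vehicle C alone apart (log2 fold change -0.07, SE 0.09). Eif5a encodes the hypusine-bearing factor that helps ribosomes over difficult peptide bonds, and stood at 438 CPM per kilobase. It was at 559.5, 536, 530.3 and 531 CPM against 600.1, 536, 662, 548 and 570.5 CPM (log2 fold change -0.11, SE 0.10). Its paralogue Eif5a2 was at 34.2, 24.1, 32.2 and 41.6 CPM against 32.5, 33.5, 49.5, 27.4 and 36.5 CPM (log2 fold change -0.12, SE 0.17), a wide spread set by AM6545 B at the low and vehicle C at the high end. Per length Eif5a exceeded Eif5a2 49.9-fold to 87.0-fold, and the log2 ratio of counts differed between the groups by 0.01 (4.06 ± 0.33, SD, n = 4, against 4.05 ± 0.22, SD, n = 5; two-sided exact permutation p = 0.968).

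Elongation was dominated by Eef1a1, the most abundant member per length at 449 CPM per kilobase. Its protein delivers aminoacyl-tRNA to the ribosome. Eef1a1 was at 767, 805, 828 and 703 CPM in the AM6545 samples and at 946, 776, 761, 892 and 779 CPM in vehicle A to E (log2 fold change -0.10, SE 0.11). Vehicle A and D were high. Eef1a2, the form that replaces Eef1a1 in mature neurons and muscle, was at 11.7, 12.03, 7.55 and 6.20 CPM against 5.32, 8.75, 7.46, 5.37 and 9.09 CPM. It had the highest log2 fold change of all members, 0.37 (SE 0.22; edgeR adjusted p = 0.662), carried by AM6545 A and B, while AM6545 C and E lay within the vehicle range; it was 0.25 without AM6545 A and 0.23 without AM6545 B.

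Eef1a2 stood far below Eef1a1. Per length Eef1a1 exceeded it 75.8-fold to 206-fold across the 9 samples. Eef1a2 also had the highest GC content of the tested members, 60.6%; whether the low-input library preparation lowered its count was not tested. The log2 ratio of Eef1a1 to Eef1a2 was 6.42 ± 0.43 (SD, n = 4) in AM6545 and 6.88 ± 0.50 (SD, n = 5) in vehicle samples, a difference of -0.46 (two-sided exact permutation p = 0.190, adjusted over 3 ratios 0.310), with overlapping groups.

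The eEF1B complex recharges eEF1A. Eef1g, its gamma subunit and the most abundant per length, was at 143, 154, 141 and 125 CPM in the AM6545 samples and at 157, 138, 142, 148 and 135 CPM in vehicle A to E (log2 fold change -0.03, SE 0.09). Eef1b2 had -0.13 (SE 0.10) and Eef1d had 0.08 (SE 0.12), so none of these subunits was at an unadjusted p under 0.05. eEF2 and its kinase were both above 0. Eef2, the translocase, was at 352, 452, 334 and 281 CPM against 302, 335, 251, 339 and 329 CPM (log2 fold change 0.19, SE 0.14); AM6545 B was far above and vehicle C below the rest. The value was 0.05 without AM6545 B and 0.07 with length and GC trends removed. Eef2k, the calcium and calmodulin-dependent kinase that inactivates eEF2, was at 21.97, 28.04, 24.2 and 23.6 CPM against 17.2, 22.7, 21.6, 21.2 and 21.8 CPM. Here 4 of 4 AM6545 samples were above the vehicle mean, vehicle A was well below the other vehicle samples, and the log2 fold change was 0.23 (SE 0.11; edgeR unadjusted p = 0.0575, adjusted p = 0.653). Without vehicle A it was 0.16.

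The log2 fold changes varied with base composition. Across the 61 tested members the log2 fold change rose with the GC content of the transcript (Spearman rho = 0.57, across genes, which share libraries and are not independent replicates), and across 14494 genes with a known value rho was 0.32. Of the 31 members at or above the members' median GC, 21 were above 0 and 10 below, with a median log2 fold change of 0.08. Of the 30 below it, 6 were above 0 and 24 below, with a median of -0.09. The GC trend differed from sample to sample: over all genes, the rho of a sample's deviation with GC ran from -0.33 in vehicle C to 0.41 in AM6545 B, and over the members from -0.59 in vehicle C to 0.63 in AM6545 B. With each sample's length and GC trends removed, a setting added after the data were seen, the members' median log2 fold change was 0.02. In that fit 2 members were at an unadjusted p under 0.05, Eef1e1 (-0.23) and Eef2kmt (-0.35), against 3.62% of all genes. The rho of log2 fold change with GC then was 0.0019 over all genes but still 0.41 over the members. Values of members with these trends removed, here and above, thus still varied with GC content.

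**Figure D4:**
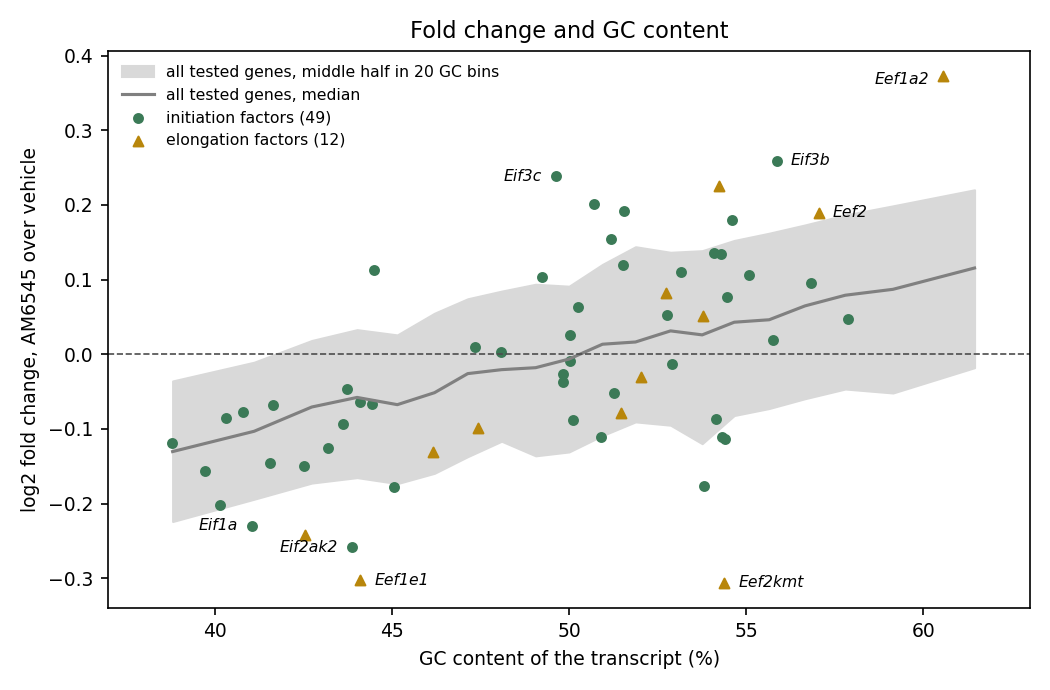
Log2 fold change, AM6545 over vehicle, against GC content of the transcript in percent, for 49 initiation factors (circles) and 12 elongation factors (triangles). The grey line and band are the median and interquartile range of all tested genes in 20 GC bins; members of low GC content mostly lie below 0, Eef2kmt lies far below the band and Eef1a2 above it.

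Several translation factors are encoded by terminal oligopyrimidine (TOP) mRNAs, whose cap is followed by a run of C and U and which are translated together with ribosomal protein mRNAs under control of the mTOR pathway. Of 9 listed TOP members, 5 have an entry in the RefSeq promoter table, and their annotated starts are shown to let the leader be compared. Each line spans 10 bases before the annotated start and the 20 genomic bases from it on, on the transcript's strand, with the longest unbroken stretch of C and T in capitals (build GRCm38.p6).
Eef1a1: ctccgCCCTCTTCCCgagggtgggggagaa
Eif3f: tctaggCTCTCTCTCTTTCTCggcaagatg
Eif4b: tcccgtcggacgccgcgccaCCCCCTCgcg
Eef2: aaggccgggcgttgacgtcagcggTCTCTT
Eef1b2: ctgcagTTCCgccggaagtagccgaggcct
These lie at chr9:78481705-78481734 (minus strand), chr7:108934405-108934434, chr15:102073763-102073792, chr10:81176621-81176650 and chr1:63176821-63176850 (all plus strand). The stretch has 10 bases in Eef1a1 and 15 in Eif3f and covers the annotated start in both. It runs from position -5 to 5 in Eef1a1, with T at the start, and from -4 to 11 in Eif3f, with C there. A stretch at least as long is in 4.77% and 0.825% of 32851 such windows in the table. These lengths and shares count bases before the start, so they do not measure the run after the cap. In Eif4b the stretch has 7 bases (17.9% of windows) and in Eef2 6 within the window (28.7%), both downstream of the annotated start. Eef1b2 has only 4 bases (68.6%). The Eef2 stretch ends at the last base shown, so its full length may be greater. A TOP stretch may still lie at starts other than those annotated. The remaining 4, Eef1d, Eef1g, Eif3e and Eif3h, are named only.

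Whether these factors moved with the ribosomal proteins was read sample by sample. The 80 cytosolic ribosomal protein genes summed to 4973, 4963, 4962 and 4630.2 CPM in the AM6545 samples and to 6896, 4657, 5685, 6018 and 4731 CPM in vehicle A to E, so vehicle A, C and D stood above the rest. Of these genes 77 were tested, and 77 had log2 fold changes below 0 (median -0.27). At an unadjusted p under 0.05 were 28, all lower, beside 4.18% of all tested genes, and 0 passed the adjusted threshold. Over the 9 samples, 7 of 61 tested members correlated with this sum above 0.7 and 1 below -0.7, on log2 levels. The share of all tested genes past these bounds was not computed, so the 7 cannot be read against a background. Eef1b2 (0.92), Eif1b (0.91) and Eef1a1 (0.81) were among the 7, while Eef2 was at -0.26. Without vehicle A, which had the highest sum, Eef1b2 was at 0.94, Eif1b at 0.87 and Eef2 at -0.19. Eef1a1 then was at 0.62, below the bound of 0.7. Eef1b2 split the samples in the same way as the ribosomal sum. It was at 92.6, 91.1 and 90.7 CPM in vehicle A, C and D and between 72.5 and 80.8 CPM in the other 6. Eef1a1 was highest in vehicle A and D, at 946 and 892 CPM, but at 761 CPM in vehicle C was lower than in 7 of the other samples. Eif1b, which is not on the TOP list, was at 204, 192 and 185 CPM in vehicle A, C and D and at 147 to 169 CPM elsewhere. Eef2 did not follow: vehicle A, C and D were at 302, 251 and 339 CPM, within or below the range of the others. The 9 listed TOP members together summed to 1527 to 1944 CPM in AM6545 and 1648 to 1922 CPM in vehicle samples, ranges that overlap, and 3 of 9 had log2 fold changes above 0 and 0 an unadjusted p under 0.05.

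**Figure D5:**
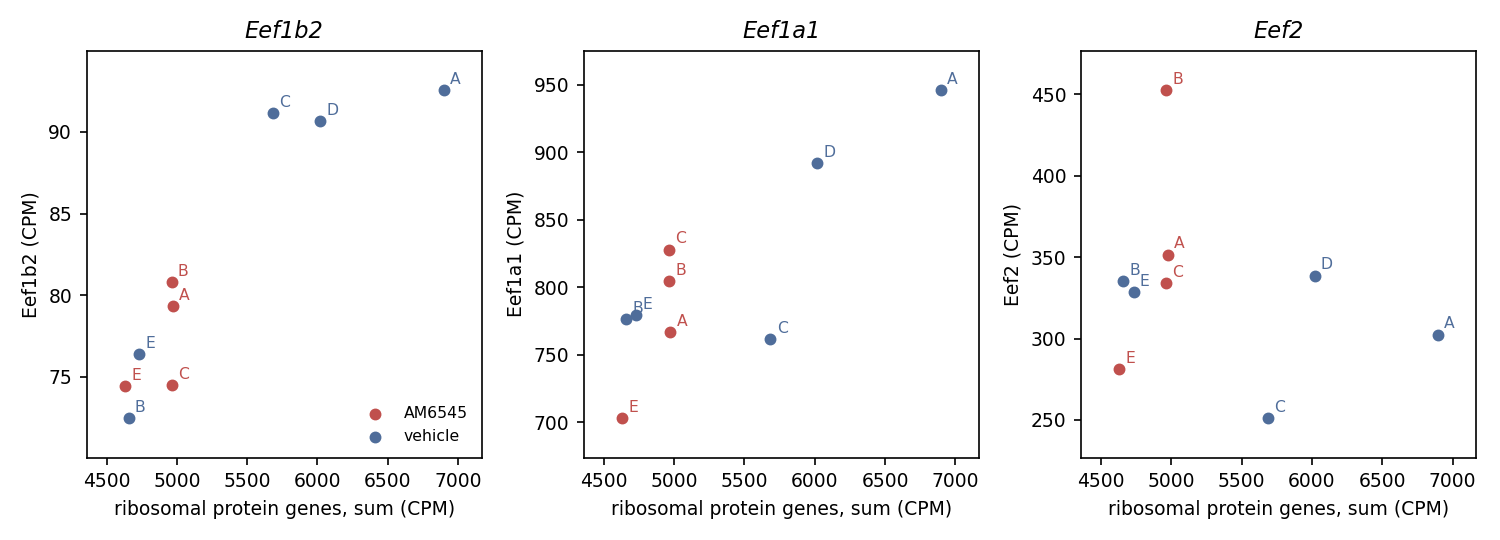
CPM of Eef1b2, Eef1a1 and Eef2 (vertical axes, not starting at 0) against the summed CPM of 80 cytosolic ribosomal protein genes, with a letter for each sample, AM6545 in red and vehicle in blue. For Eef1b2 vehicle A, C and D lie apart at the upper right; for Eef2 they do not.

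Around the factors themselves, a list of 35 translation regulators, release factors and poly(A)-binding proteins had 34 genes in the table, all tested, 16 above and 18 below 0. At an unadjusted p under 0.05 there were 2 higher and 3 lower, beside 3.03% and 4.18% of all tested genes, and 0 passed the adjusted threshold by edgeR's quasi-likelihood test (each adjusted p = 0.653). Lower were Mcts1 (log2 fold change -0.27, SE 0.12) and Denr (-0.24, SE 0.11), whose proteins pair to recycle and restart ribosomes, and Paip2 (-0.25, SE 0.11), an inhibitor of the poly(A)-binding protein. Mcts1 was at 64.0, 60.9, 76.7 and 61.3 CPM in the AM6545 samples and at 80.7, 65.7, 99.6, 77.3 and 73.9 CPM in vehicle A to E, with vehicle C highest. Denr was at 93.4, 91.4, 103 and 104 CPM against 126, 95.8, 133, 115 and 111 CPM, again highest in vehicle C. Higher were Cyfip1 (0.27, SE 0.11), whose protein binds FMRP and eIF4E, and Larp1 (0.20, SE 0.09), which binds TOP mRNAs. Cyfip1 was at 148, 161, 140.3 and 113 CPM against 102, 132, 109, 116 and 122 CPM, and AM6545 E alone lay within the vehicle range. The groups overlapped for all 5 genes. GC content was 40.1% for Mcts1, 42.9% for Denr, 44.7% for Paip2, 47.3% for Cyfip1 and 53.7% for Larp1. The median over all tested genes was 50.5%, and the part of GC content in these differences was not tested.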

How the data were processed

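Per the labels' protocols, libraries from RNA of hippocampal synaptoneurosomes were prepared using a SMARTer Ultra Low Input kit and read on a NovaSeq. The submitters' processing notes name Salmon 1.3, DESeq2 1.30 and the builds GRCm39 and mm10, with no role or order. The authors deposited 1 table of estimated counts per gene, which were rounded to whole numbers here.

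Genes were tested with edgeR 4.0.16 (R 4.3.3; quasi-likelihood test, filterByExpr, TMM, Benjamini-Hochberg adjustment over 14512 genes, threshold 0.05); the SE was taken as the absolute log2 fold change over the root of F. Ratios of gene pairs used exact permutation tests (scipy 1.17.1) with 0.5 counts added. Symbols came from a gene name table for 22155 of 22255 rows. Transcript length and GC content came from GENCODE M21 principal coding transcripts, and shared sequence from blastn 2.17.0 (at least 100 bases at 95% identity). The script was tested on simulated data.

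Members, lists and named genes were chosen with earlier results of these data known. Members set to be named were those at an unadjusted p under 0.05 or with groups that do not overlap. The most abundant per length of each of 16 complexes and the 3 pairs of paralogues were added. So were Eef2, Eef2k, Eif2s1, the eIF2 alpha kinases, Eif4g1 to Eif4g3, Eif4b and Eif4h. Most of these have values given for every sample, and some only a range or a log2 fold change. Alternatives were limma 3.58.1, DESeq2 1.42.0, other scalings and filters, trend removal, a replicate block and leaving out each sample. Totals of 17628922 to 27263393 counts gave at least 36 counts per sample for each tested member.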

Additional observations from a re-analysis of the deposited data

Results flagged for a closer look

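For 62 results, or 124 groups of values, the gap between the most extreme sample and its nearest neighbour was compared with the full spread of the group (Dixon's test). In 4 groups this gap, as a share of the spread, was above the 95% critical value, where chance gives about 6.2. Eef1e1 was at 57.2 CPM in vehicle C, while the remaining vehicle samples lay at 39.0 to 42.5 CPM (gap share 0.776). The same sample was highest for Eif4a2, at 632 CPM, with the remaining vehicle samples at 497 to 532 CPM (gap share 0.719). Vehicle A was lowest for Eef2k, at 17.2 CPM, with the remaining vehicle samples at 21.2 to 22.7 CPM (gap share 0.755). AM6545 E was lowest for Eif2s1, at 70.1 CPM, and the remaining AM6545 samples lay at 97.0 to 103 CPM (gap share 0.836).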

How the results depend on the processing

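No member passed the adjusted threshold by any of the 21 alternatives run, and over all genes the count past it was 0 in each except without AM6545 A, where it was 1; with each sample left out in turn it thus ran from 0 to 1. The count of members at an unadjusted p under 0.05 was 2 with DESeq2 size factors (beside 7.20% of all genes), 2 with limma-voom (6.00%) and 2 with the length and GC trends removed (3.62%), the last a setting chosen after seeing the data. It was 6, 3 higher and 3 lower, with limma-voom sample weights (12.6%). Eif3b was among the members counted as higher there, and was the 1 higher member with DESeq2, with robust estimation and with no count filter. With each sample left out in turn it ran from 0 (without AM6545 B) to 13 (without AM6545 E). The cause of these differences was not tested. Groups share the letters A, B, C and E, but correlations of same-letter deviations were -0.02, 0.04, 0.34 and -0.02, and only C correlated best with its own letter, so the letters were not taken to pair samples. Under the replicate block the count was 1, Eef1e1, beside 5.34% of all genes.

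Among 43 named members followed across the alternatives, those that changed sign had main log2 fold changes from -0.12 (Eif5a2) to 0.08 (Eef1d). Under the replicate block Eef1akmt4 was at -0.017 and Eif4a1 at -0.0035, and with no replicate block but without vehicle D they were at -0.0075 and -0.0064. Eif4a1 was at -0.0091 with total counts and Eif3g at -0.0045 with limma-voom. With limma-voom sample weights Eef1akmt1 was at 0.039, Eef1g at 0.021, Eif2b1 at 0.019 and Eif2d at -0.0074. With the length trend removed Eef1akmt1 was at 0.088, Eif4e2 at 0.019, Eif4enif1 at -0.014 and Eif4g2 at 0.076. With length and GC trends removed Eef1akmt1 was at 0.067, Eif2s1 at 0.0087, Eif4e2 at 0.019, Eif4enif1 at -0.015, Eif4g2 at 0.030 and Eif6 at -0.0016. The median of the methyltransferases moved from -0.16 to -0.02 with the length trend and to 0.02 with both trends removed.

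With each sample left out in turn, 20 of 61 members changed sign at least once. For the 11 named ones this came with ranges of -0.071 to 0.15 (Eif3g), -0.062 to 0.079 (Eif4a1), -0.030 to 0.066 (Eif4enif1), -0.12 to 0.15 (Eef1akmt4), -0.0096 to 0.18 (Eef1d), -0.052 to 0.041 (Eif4e2), -0.25 to 0.023 (Eif5a2), -0.033 to 0.16 (Eif6), -0.077 to 0.023 (Eef1g), -0.086 to 0.057 (Eif2b1) and -0.15 to 0.034 (Eif2s1). The Eif5a to Eif5a2 difference ran from -0.13 to 0.14. Eef1akmt4 had 36 counts in its lowest sample, Eif2ak2 54 and Eef1a2 92, and their SEs were 0.20 to 0.22. Eif2ak4, with 134 counts in its lowest sample, had an SE of 0.12, and Eif3c, with 2028, an SE of 0.18. The part of depth in these SEs was not tested.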
